A study of Mus musculus with 3 samples.

Results

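The 10 genes described here encode receptors through which growth factors act on blood cells and their neighbours: Kit, Flt3, Csf1r, Pdgfrb, Igf1r, Tek, Il3ra, Csf2rb, Csf3r and Il6st. They were chosen by name, out of 21728 protein-coding genes of chromosomes 1 to 19 and X, and all 10 were measured. Accessible chromatin was read in long-term hematopoietic stem cells (LT-HSCs) from the bone marrow of wild-type C57BL/6J female mice aged 24 months. The cells had been enriched for c-Kit and sorted as Lin- cells positive for c-Kit, Sca-1 and CD150 and negative for CD34 and CD48, so the protein product of Kit took part in their selection. They were profiled by DOGMA-seq, which reads open chromatin (ATAC), RNA and oligo-tagged antibodies from the same cell. There was 1 pool of cells and 1 library per assay, so no replicate spread could be measured and no test was run. The 95% intervals given are exact, from the Poisson distribution for levels and for cells open at both genes, and from the binomial for percentages and for log2 ratios. They reflect the number of fragments counted, taken as independent, and nothing else. The reads carry no molecular identifiers.

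All 3724 barcodes of the antibody table were among the 4369 barcodes called as cells, and 3629 of them carried at least 10 antibody tags and were kept. They held 38490755 fragments of nuclear DNA on these chromosomes, with a median of 10286 per cell (3852 to 45068). The median number of antibody tags was 29 per cell. Of the kept cells, 258 had an excess of loci covered by 3 or more fragments, and antibody values without them are given below where a call rests on them. Of the genes that mark LT-HSCs, 8 of 10 lay above the median level of all genes, against 2 of 9 for neutrophils and monocytes, 2 of 8 for macrophages, 1 of 6 for T and NK cells, 1 of 5 for mast cells and 0 of 5 for B cells. The counts were 5 of 7 for megakaryocytes, 4 of 7 for erythroid cells, 4 of 6 for dendritic cells, 3 of 5 for endothelium and 3 of 5 for stroma. Kit, Csf3r, Csf1r and Flt3 are themselves on the lists for LT-HSCs, neutrophils, macrophages and dendritic cells.

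Growth factor receptors of this kind fall into a pair of structural groups. Kit, Flt3, Csf1r, Pdgfrb, Igf1r and Tek are receptor tyrosine kinases, which phosphorylate themselves when their ligand binds. Kit binds stem cell factor and is required by blood stem cells, Flt3 marks early multipotent and lymphoid progenitors, Csf1r is the receptor of macrophage growth factor, and Tek (Tie2) binds angiopoietins on endothelium and stem cells. Il3ra, Csf2rb, Csf3r and Il6st are cytokine receptors, which lack a kinase of their own and signal through bound JAK kinases to STAT factors. Csf2rb is the shared beta chain of the IL-3, IL-5 and GM-CSF receptors, and Il6st (gp130) is the shared chain of the IL-6 family.

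Open sites were 500 base windows centred on local maxima of Tn5 insertion, at which the transposase had cut at least 5 times as often as the genome mean. The central 300 bases of 4 of them are printed because they stand for the kinds of site found in these genes: GC-rich sites upstream of a gene start, a strong site far inside an intron, and a weaker intronic site with less GC. Letters are from the RefSeq copy of GRCm38 (mm10), 5′ to 3′ on the strand of the gene. Capitals mark matches to any of 8 short motifs, searched on both strands, with overlapping matches each counted. They were GATAA (GATA factors), TGTGGT (RUNX), AGGAAG (ETS), TGANTCA (AP-1), TTGCNNAA (C/EBP), TTCNNNGAA (STAT), GGGCGG (GC box) and a core motif of CTCF.
Il3ra upstream: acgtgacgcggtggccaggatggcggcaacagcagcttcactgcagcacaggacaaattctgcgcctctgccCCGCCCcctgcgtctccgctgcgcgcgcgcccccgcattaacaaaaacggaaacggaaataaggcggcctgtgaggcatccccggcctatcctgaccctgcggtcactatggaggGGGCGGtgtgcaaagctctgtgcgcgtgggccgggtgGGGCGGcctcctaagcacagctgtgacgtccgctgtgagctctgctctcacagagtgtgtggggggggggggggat
Igf1r upstream: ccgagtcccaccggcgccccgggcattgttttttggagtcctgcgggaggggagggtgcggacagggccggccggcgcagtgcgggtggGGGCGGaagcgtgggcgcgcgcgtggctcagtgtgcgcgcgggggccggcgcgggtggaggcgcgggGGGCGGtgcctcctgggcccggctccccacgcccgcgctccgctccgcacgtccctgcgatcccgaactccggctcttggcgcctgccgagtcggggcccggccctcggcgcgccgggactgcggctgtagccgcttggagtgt
Igf1r intron 2: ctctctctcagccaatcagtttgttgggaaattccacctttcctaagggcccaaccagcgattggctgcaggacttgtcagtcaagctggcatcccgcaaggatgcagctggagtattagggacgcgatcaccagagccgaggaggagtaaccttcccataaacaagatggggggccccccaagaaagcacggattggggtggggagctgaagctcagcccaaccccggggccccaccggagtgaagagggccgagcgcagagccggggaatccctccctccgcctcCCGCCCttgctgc
Kit intron 1: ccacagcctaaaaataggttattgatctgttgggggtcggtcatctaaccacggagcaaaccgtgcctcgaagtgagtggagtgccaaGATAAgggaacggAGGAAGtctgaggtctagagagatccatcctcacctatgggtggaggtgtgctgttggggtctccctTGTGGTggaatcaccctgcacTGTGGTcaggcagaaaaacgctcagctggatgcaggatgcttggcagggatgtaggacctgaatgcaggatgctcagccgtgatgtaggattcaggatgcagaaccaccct

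The Il3ra sequence is chr14:14345601-14345900, centred at -524 from the gene start, with 66.0% G or C, 25 CG pairs and 3 GC boxes. The Igf1r upstream sequence, chr7:67951551-67951850, is centred at -1126 and has 78.3% G or C, 45 CG pairs and 2 GC boxes. The site in intron 2 of Igf1r, chr7:68129151-68129450, lies 176474 bases from the gene start and 19289 bases from the nearest annotated transcript start, with 61.3% G or C and 1 GC box. The Kit sequence, chr5:75582051-75582350, lies in intron 1, 7285 bases from the gene start. It holds 1 GATAA, 1 AGGAAG and 2 TGTGGT matches, which makes it the printed site with matches to the most of these blood factor motifs.

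Over the strongest site of each of the 53 stretches of open sites in the 10 genes, AGGAAG was present in 23, GATAA in 18, TGTGGT in 13 and GGGCGG in 13. As percentages these were 43.4%, 34.0%, 24.5% and 24.5%, beside 40.4%, 27.0%, 22.7% and 19.8% of all 140006 open sites of the genome. More than 1 kb from gene starts, where 45 of the 53 lay, they were 46.7%, 35.6%, 22.2% and 22.2%. Of all open sites there, 43.6%, 29.4%, 25.8% and 12.8% held them. TGANTCA was found in 7 (13.2%, against 9.40% of all sites), TTGCNNAA in 7 (13.2% against 11.1%), TTCNNNGAA in 4 (7.55% against 8.37%) and the CTCF core in 1 (1.89% against 1.92%). The counts in the receptor genes are small, and no motif was called particular to them. A match describes the sequence only and does not show that a factor binds.

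Il3ra was by far the most accessible of the 10 genes per unit length, and Tek the least. Over the gene and 2 kb upstream, Il3ra, the IL-3 receptor alpha chain, had 7.76 fragments per kb per 1000000 nuclear fragments (95% interval 7.51 to 8.02), above 96.6% of all genes. Kit followed at 1.51 (1.47 to 1.56) and Csf1r at 1.47 (1.40 to 1.53), and the interval of their ratio included 1. Igf1r, the insulin-like growth factor 1 receptor, had 1.247 (1.23 to 1.27). Pdgfrb, a receptor best known in stromal and mural cells, stood at 0.988 (0.940 to 1.04), Il6st at 0.986 (0.941 to 1.03) and Flt3 at 0.936 (0.901 to 0.973). Neither Pdgfrb and Il6st nor Il6st and Flt3 could be placed in order within counting error. Csf2rb (0.719, 0.671 to 0.770) and Csf3r, the G-CSF receptor (0.704, 0.648 to 0.763), were also not separated from each other. Tek had 0.165 (0.155 to 0.177), and the level of Csf3r was 4.25 times that of Tek. Fewer open alleles and fewer fragments per open allele cannot be told apart in these sums over cells.

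The median of all genes on this scale was 0.835, so 7 of the 10 genes were above it and 3 below. The median of 1134 olfactory receptor genes, which blood cells keep closed, was 0.0177, and the 10 genes were between 9.35 and 439 times that value. The windows differed in length, from 11.7 kb at Il3ra to 283 kb at Igf1r, and a start makes up more of a short one. Igf1r had a fragment in 95.3% of cells (3458 cells), Kit in 68.2%, Il3ra in 57.3%, Flt3 in 46.3% and Csf3r in 13.5%, the lowest of the 10. On mm10, the annotated genes were Il3ra chr14:14346275-14356011, Kit chr5:75574916-75656722, Csf1r chr18:61100598-61132149, Igf1r chr7:67952827-68233668 and Pdgfrb chr18:61045150-61085061. The others were Il6st chr13:112464070-112510086, Flt3 chr5:147330741-147400489, Csf2rb chr15:78325752-78353847, Csf3r chr4:126024550-126044440 and Tek chr4:94739289-94874976, with Flt3 alone on the minus strand.

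**Figure D1:**
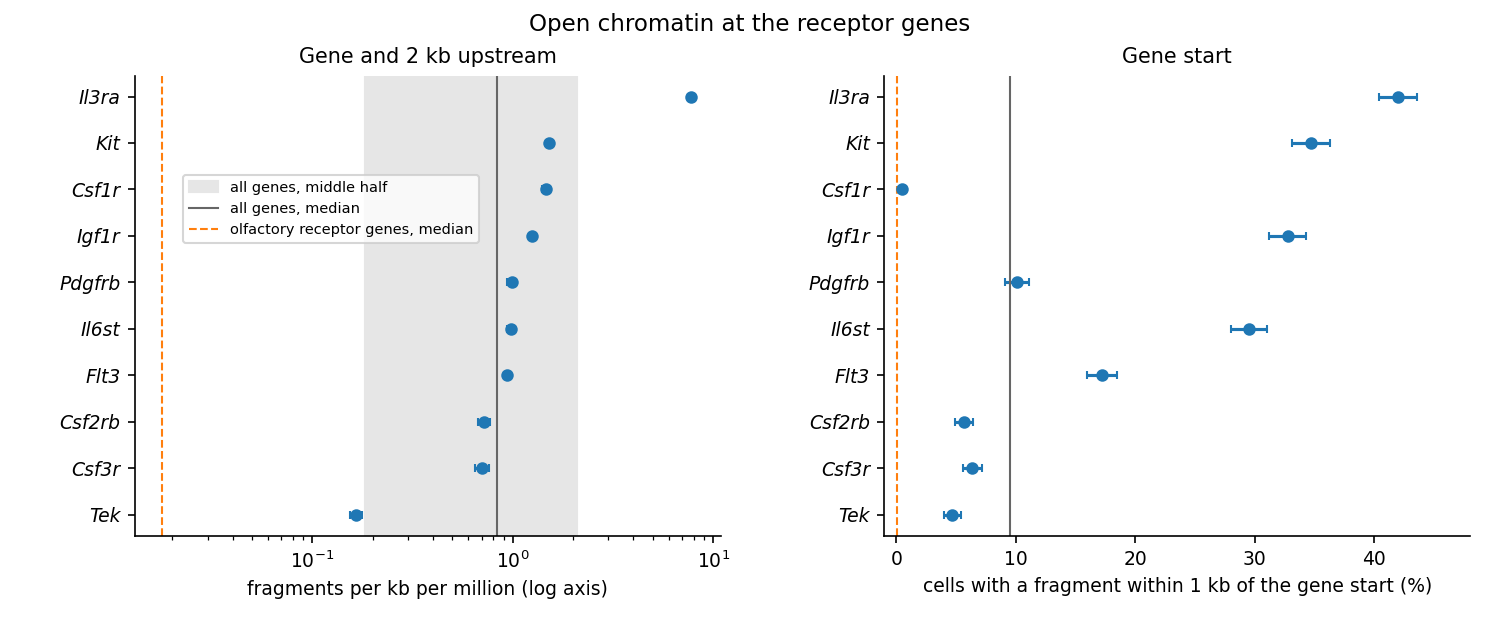
Left, fragments per kb per 1000000 over each gene and 2 kb upstream (log axis, points with 95% intervals), with the median of all 21728 genes (0.835, grey line, the band spanning their quartiles) and of olfactory receptor genes (dashed). Right, percent of the 3629 cells with a fragment within 1 kb of the gene start. Csf1r is the third gene on the left and the lowest on the right, at 0.496%.

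At the gene starts the order changed. Counting insertions within 1 kb on each side of the annotated gene start, Il3ra was 67.7 times the genome mean, Kit 53.3, Igf1r 44.9, Il6st 44.7 and Flt3 24.2. Pdgfrb stood at 13.2, Csf3r at 8.41, Csf2rb at 7.46 and Tek at 5.82. Thus 9 of the 10 starts were at least 5 times the genome mean, a mark passed by 61.1% of all genes and by 0.353% of olfactory receptor genes. The share of cells with a fragment in this window ran from 42.0% (40.4 to 43.6) at Il3ra, 34.7% (33.1 to 36.3) at Kit, 32.7% at Igf1r and 29.5% at Il6st down to 5.62% at Csf2rb and 4.68% (4.02 to 5.42) at Tek. The median over all genes was 9.52%, and over olfactory receptor genes 0.0276%.

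Csf1r was the exception. Its annotated gene start, that of transcript Csf1r-206, which is not protein-coding, was at 0.515 times the genome mean, with fragments in 18 cells (0.496%, 0.294 to 0.783). The start of the coding transcript Csf1r-201, 4974 bases further on, had 2.28 times the mean and fragments in 61 cells (1.68%, 1.29 to 2.15). None of the 6 annotated starts of Csf1r passed 2.29 times the mean. The strongest open site of the gene was in an intron.

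The starts also differed in base composition. Within 500 bases on each side of the start, the ratio of observed to expected CG pairs was 0.959 at Igf1r, 0.835 at Il6st, 0.734 at Il3ra, 0.719 at Flt3 and 0.675 at Kit. These 5 genes had the most insertions within 1 kb of the start. The ratio was 0.394 at Pdgfrb, 0.317 at Tek, 0.244 at Csf3r and 0.119 at Csf2rb, and 0.163 at the start of Csf1r-201. Over all genes, starts with a ratio above 0.75 had a median of 42.5 times the genome mean and 98.1% of them passed 5 times, whereas starts with a ratio up to 0.25 had a median of 0.166 and 8.73% passed. Csf2rb and Csf3r, both with a ratio at or under 0.25, were among that minority that passed. Over the whole gene and 2 kb upstream, fragments of at most 120 bases made up 12.3% at Tek and 14.0% at Csf3r. This is the length that fits between nucleosomes. These shares were lower than at all but 1.45% and 2.77% of genes, against 35.1% at Il6st and a median of 28.3%. At the strongest site over the start such fragments made up 8.41% at Tek, 23.2% at Csf3r and 44.2% at Il6st.

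**Figure D2:**
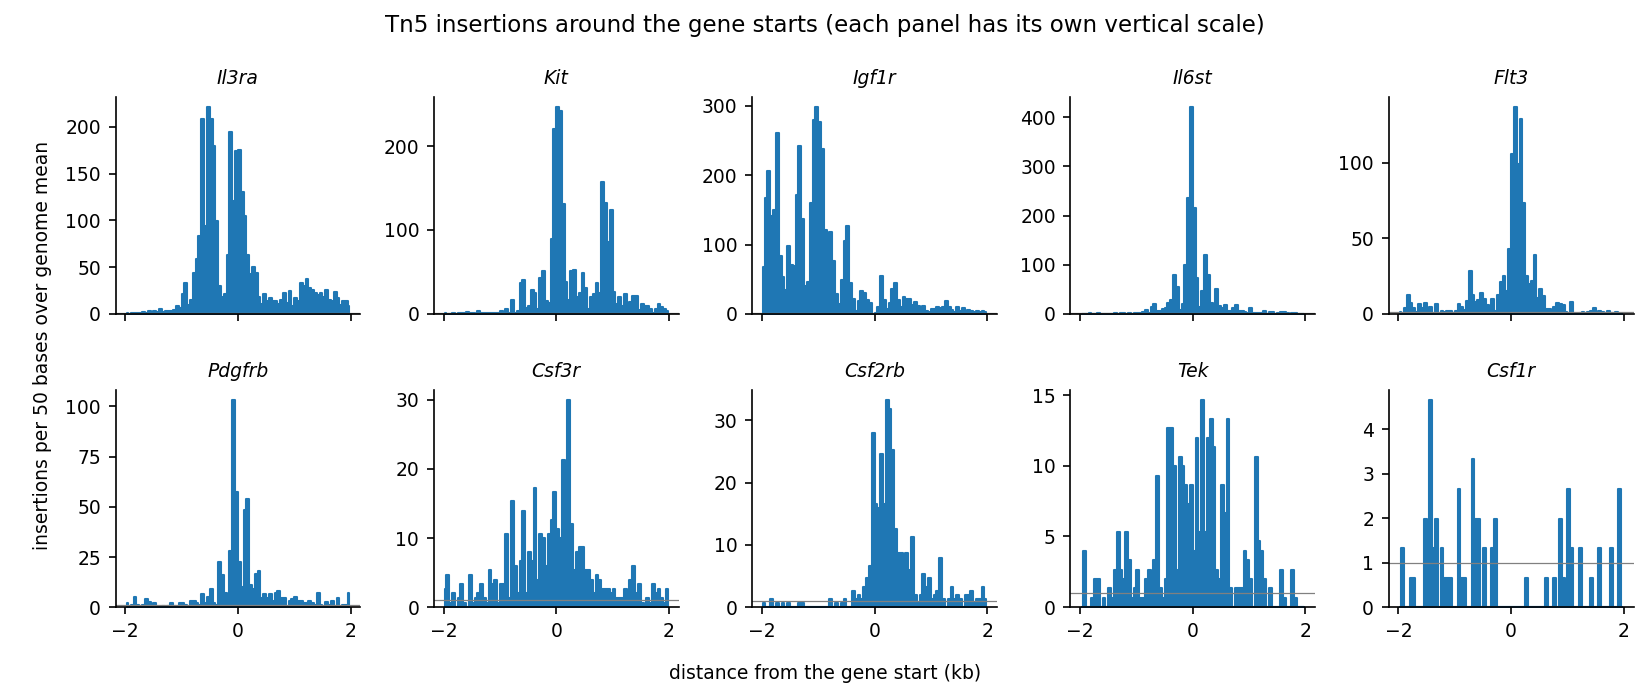
Insertions per 50 bases over the genome mean, by distance from the annotated gene start in kb, each panel with its own vertical scale. Il6st had a narrow main summit at the start, Pdgfrb and Il3ra had more than 1 summit, and Kit a further one near 885 bases inside the gene. Igf1r was open mainly upstream, with 0 and 2 insertions in the bins just before and after its start. The bins of Csf1r next to its start held no insertion.

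Inside the genes and in the 2 kb before them, 114 open sites were found, grouped in 53 stretches of sites whose centres lay within 1 kb of each other. Of the 114 sites, 84 were in introns (75 of these more than 1 kb from the gene start), 17 in exons and 13 upstream. The strongest site was within 1 kb of the gene start in 8 of the 10 genes, the exceptions being Csf1r and Igf1r. Many sites are shoulders of a stronger neighbour, so the stretches are the better count of separate open regions.

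Among the kinases, Csf1r had its strongest site in intron 2 of Csf1r-201, at chr18:61108351-61108850, 8003 bases from the gene start and 2722 from the nearest transcript start. It reached 71.9 times the genome mean, above 93.2% of all open sites, and 559 cells (15.4%, 14.2 to 16.6) carried 710 fragments over it. Intron 2 of Csf1r is known to hold an enhancer active in macrophages, and whether this site is that enhancer was not tested. The next separate stretches of Csf1r, at 30803 and 20153 bases, were at 11.2 and 10.97 times the mean. The former lies where the 3′ end of Hmgxb3 overlaps the gene, and its fragments cannot be assigned to either gene.

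Igf1r had the most sites, 40 in 21 stretches. The upstream site shown above reached 186 times the mean and was open in 1351 cells (37.2%, 35.7 to 38.8). The site in intron 2, printed above, reached 158 times, above 98.1% of all open sites, and was open in 1113 cells (30.7%, 29.2 to 32.2). Of its fragments, 44.8% were at most 120 bases long. Between them lay weaker intronic sites, the highest at 118124 bases (37.4 times) and 120674 bases (34.7 times).

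Kit had 17 sites in 7 stretches. The strongest, chr5:75574801-75575300, lay over the exon at the gene start at 111 times the mean and was open in 896 cells (24.7%, 23.3 to 26.1). A further summit of the same stretch, in intron 1 at 885 bases, reached 64.1 times the mean and 15.8% of cells. Intronic sites of other stretches were weaker, with 21.1 times the mean at 7285 bases (178 cells) and 17.5 times at 14785 bases (161 cells).

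Flt3 had 14 sites in 7 stretches, led by its start at chr5:147400051-147400550 (69.3 times the mean, 14.96% of cells). One of its intronic sites, at 59138 bases in intron 19, reached 16.5 times and 151 cells (4.16%). Beyond the 2 kb window, sites of about the strength of the Flt3 start lay at -29812 (74.2 times the mean), -17962 (58.4 times) and -30762 (51.9 times). The first and last of these lay inside the neighbouring gene Pan3, the first just inside its edge facing Flt3. Whether they belong to Flt3 or to Pan3 was not tested. Of the other 9 genes, the strongest site between 2 and 50 kb upstream was that of Igf1r at -2226 (40.3 times), and Kit had 1 such site, at -38115 (12.9 times).

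Pdgfrb lies beside Csf1r on the same chromosome, 15.5 kb apart, and was open at its start. That was its strongest site at 36.0 times the mean (319 cells, 8.79%), with intronic sites at 23251 bases (23.7 times) and 9401 bases (21.3 times). Tek had 4 sites, none above 9.44 times the mean. Its start was open in 98 cells (2.70%), and its intronic sites at 121762 and 88162 bases were at 6.72 and 5.12 times the mean.

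Of the cytokine receptors, Il3ra was 1 continuous stretch of 11 sites, with 87.97% of its insertions in open sites. The site printed above reached 122 times the mean (981 cells, 27.0%), and the site over the start, centred at 76 bases, reached 114 times (943 cells, 26.0%). Il6st was open mainly at its start, at 133 times the mean (984 cells, 27.1%), and 78.5% of its insertions lay in its 4 sites. A site of 14.6 times the mean sat in a 3′ untranslated exon, 45581 bases from the start, and held the only CTCF match among the 53 stretches.

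Csf2rb spread its 4 sites more evenly. The start reached 21.3 times the mean (177 cells, 4.88%), and the introns 18.4 times at 14499 bases (153 cells) and 16.03 times at 6249 bases (128 cells). The start held 2 GATAA, 2 AGGAAG, 1 TTGCNNAA and 1 TTCNNNGAA matches. Csf2rb has a close paralogue 20.03 kb away, Csf2rb2, which had 409 fragments, so reads shared between the pair may be split and both values are uncertain. Csf3r had 3 sites, all at its start, the strongest at 14.96 times the mean (137 cells, 3.78%), and its start held 4 AGGAAG matches.

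**Figure D3:**
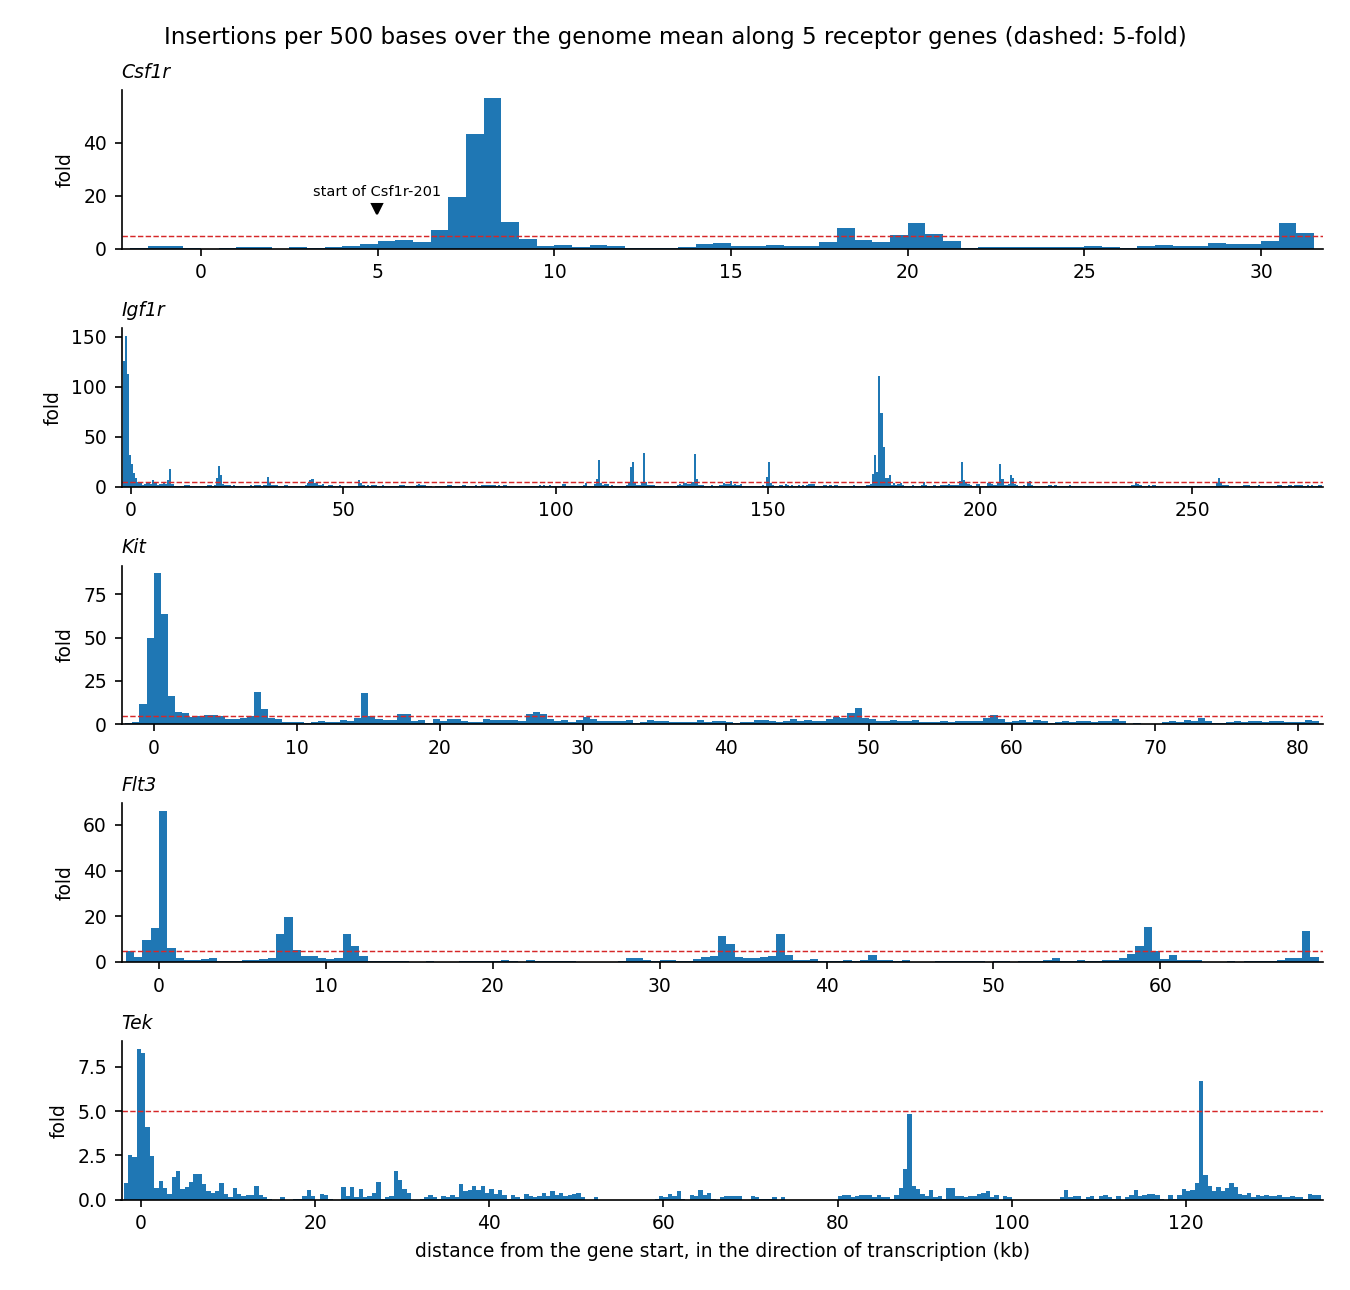
Insertions per 500 bases over the genome mean along Csf1r, Igf1r, Kit, Flt3 and Tek, by distance from the gene start in kb, each with its own vertical scale and the 5-fold mark dashed. The Csf1r signal peaks in the intron near 8 kb and not at either start, and Igf1r has peaks upstream and at 176 kb. Kit and Flt3 peak at the start with lower intronic sites, and no Tek site is above 9.44 times the mean.

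The rest of the pathway gave a frame for these levels. Among 24 other receptors, 15 were above the median of all genes and 18 had a start at least 5 times the genome mean. The highest was Csf2ra, the GM-CSF receptor alpha chain and a partner of Csf2rb, at 18.3 fragments per kb per 1000000 on the same scale, and the lowest Il5ra, the IL-5 receptor alpha chain, at 0.0568. Of 17 ligand genes, 10 were above the median, from Flt3l at 5.35 to Il3 at 0.242. Of 26 signalling genes, 22 were above it and all 26 had an open start, from the inhibitor Socs1 at 18.0 to the adaptor Gab2 at 0.511. The medians of the 3 lists were 1.07, 1.54 and 1.65, beside 0.987 for the 10 receptors and 0.835 for all genes. The marker lists ranged from Hoxb5 (5.81) to Fgd5 (0.660) for LT-HSCs, Itga2b (6.82) to Gp6 (0.0247) for megakaryocytes, Klf1 (8.52) to Hba-a1 (0.176) for erythroid cells, and Elane (2.19) to Ly6c2 (0.0447) for neutrophils and monocytes. They ranged from Cd68 (3.38) to Adgre1 (0.0262) for macrophages, Irf8 (1.90) to Siglech (0.0693) for dendritic cells, Hdc (1.10) to Fcer1a (0.0688) for mast cells, Cd79a (0.644) to Ms4a1 (0.0574) for B cells, Lck (2.86) to Ncr1 (0.0220) for T and NK cells, Pecam1 (1.24) to Emcn (0.179) for endothelium and Col1a1 (2.18) to Lepr (0.0478) for stroma.

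Fragments of Csf1r were more clustered in particular cells than those of most genes. The spread was measured as the squared deviation of each cell's count from that expected from its depth, over the expected count, which is 1 for a Poisson count. It was 1.35 for Csf1r, above 99.2% of 3552 genes with a like number of fragments, whose median was 1.16. There were 131 cells with 3 or more Csf1r fragments, where depth alone gave 70.4, a ratio of 1.86 (1.56 to 2.21). This ratio was higher still at Tek (3.57), Csf3r (3.55) and Csf2rb (2.87), which have few such cells (33, 11 and 23), and close to it at Pdgfrb (1.82) and Il6st (1.66), so it does not set Csf1r apart as the spread does. The place of Csf1r was between 99.1 and 99.4% when excess-overlap cells or the deepest cells were left out or depth was taken in peak regions. Csf3r (1.27, 92.3%) and Flt3 (1.23, 86.3%) followed, and Igf1r (31.7%) and Csf2rb (38.6%) were below the median of their like genes. In all, 8 of the 10 genes were above that median, Il6st (51.5%) and Tek (54.6%) only narrowly.

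For no pair of receptor genes did the interval leave out the number of cells open together that depth gave. For each pair, the cells with a fragment at both genes were counted and divided by the number expected if each gene opened independently at a rate set by the cell's depth. Over the 42 pairs on different chromosomes, the ratio ran from 0.954 (Csf3r and Pdgfrb) to 1.10 (Csf2rb and Tek, 0.940 to 1.29, 162 cells against 147 expected), with a median of 1.002. For 0 of the 42 pairs did the interval leave out 1. Among 122254470 such pairs of genes with at least 200 fragments, it lay above 1 in 0.249% and below 1 in 0.263%. The expected number was fitted to each gene's own count of open cells, which the Poisson interval does not allow for. The interval is therefore wider than it should be and calls few pairs of any genes. So 0 of 42 does not show that the receptor genes open independently. Tight intervals came from the widely open genes: Kit and Il3ra were open together in 1462 cells against 1463 expected (0.999, 0.949 to 1.052). Csf2rb and Il3ra, whose products form 1 receptor, were open together in 407 cells against 415 expected (0.982, 0.889 to 1.08). Against all genes on other chromosomes, Tek was called above 1 with 264 of 15085 partners (1.75%) and Csf2rb with 114 (0.738%), and Csf3r was called below 1 with 123 (0.815%).

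For the 3 pairs on 1 chromosome, the ratio was 1.01 for Kit and Flt3 (0.954 to 1.07), 1.03 for the neighbours Csf1r and Pdgfrb (0.936 to 1.13) and 0.941 for Csf3r and Tek (0.765 to 1.15). The same count was made between separate sites of 1 gene, for up to 4 sites a gene open in at least 90 cells. It gave 28 pairs in 7 genes, with ratios from 0.429 to 1.85, and 0 of the 28 intervals left out 1. These intervals are too wide for the same reason as those between genes, so they do not show that the sites open independently. The upstream and intron 2 sites of Igf1r were both open in 410 cells, against 441 expected (0.931, 0.843 to 1.03). The start and the 7285 base site of Kit were both open in 56 cells against 47.8 (1.17, 0.884 to 1.52). Igf1r had a fragment in nearly every cell, so a pair with it could hardly depart from 1. With 10286 fragments in the median cell most open sites yield none, and co-opening of a small subset of cells was not detectable at this depth.

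**Figure D4:**
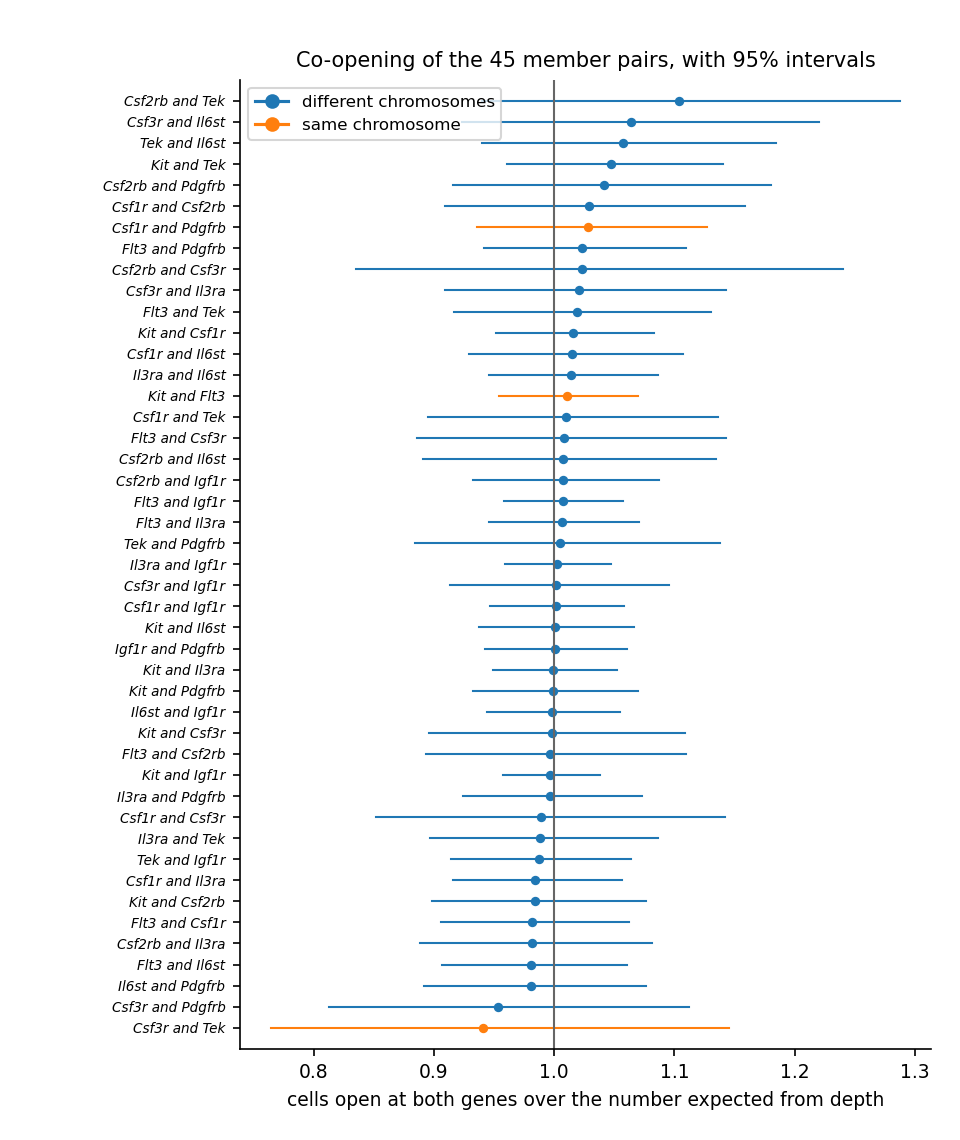
Cells open at both genes over the number expected from depth, for all 45 pairs of the 10 genes in order of the ratio, with 95% intervals. All 45 intervals cross 1, and the widest belong to Csf2rb, Csf3r and Tek, which had the fewest fragments.

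Depth-adjusted counts of the 10 genes were weakly correlated over the 3629 cells with those of any gene. Correlations between the 10 were from -0.0273 to 0.0365. The 3 genes on other chromosomes that were most like each of them had correlations from 0.0588 to 0.0816, none of the 30 was a member, and all share library and depth with it. The highest was Psmb8 with Csf3r (0.0816). The nearest were Clint1, L1td1 and Tmem260 for Kit, Ddx10, Cers5 and Ap1b1 for Flt3, Xdh, Midn and 4922502D21Rik for Csf1r, and Msn, Fgr and Gadl1 for Csf2rb. They were Psmb8, Klhl11 and Crb1 for Csf3r, Kcns2, U2af2 and Coq10a for Il3ra, Msx1, Naip2 and Ccz1 for Tek, Gm14862, Ssr3 and Slc4a9 for Il6st, Abca2, Galnt7 and Tef for Igf1r, and Gnat3, Ccdc36 and Tubgcp4 for Pdgfrb. Values this low in sparse counts are a description only.

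The 12 antibodies allowed the genes to be compared between cells with many and few tags of a surface protein, with cut-offs as near to the 25% of cells at each end as ties allowed. Over 10 genes and 12 antibodies, the interval of the log2 ratio left out 0 in 15 of 120 comparisons (12.5%), 11 higher and 4 lower in the high cells. Over all genes with at least 200 fragments it did so in 7.57% of comparisons. Igf1r, with the most fragments, had 0 of 12, and its ratios ran from -0.10 to 0.06.

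CD274 (PD-L1) gave the largest called ratio. Cells with at least 27 CD274 tags (937 cells) were set against those with at most 12 (877 cells), and 14.2% of all genes were called. Csf1r had 592 fragments in the high and 410 in the low cells, or 1.71 against 1.31 fragments per kb per 1000000, a log2 ratio of 0.39 (0.20 to 0.57), larger than at 98.5% of genes. The intron 2 site alone gave 247 against 158 of these fragments, a log2 ratio of 0.50 (0.21 to 0.80), so it is not a separate observation. In 4 bins of CD274 count (2 to 13, 14 to 19, 20 to 27 and 28 to 110 tags), the Csf1r level was 1.30 (1.19 to 1.42), 1.45 (1.31 to 1.59), 1.40 (1.26 to 1.54) and 1.73 (1.59 to 1.88). The interval of the top bin lay only barely above those of the other 3 (1.592 against 1.589), which overlapped. The spread of Csf1r over cells was 1.35, where a Poisson count has 1, and these intervals leave it out, so the separation is not secure.

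Il3ra was also higher in CD274-high cells (8.30 against 7.15, log2 ratio 0.22, 0.08 to 0.35), and Kit was lower (1.44 against 1.68, log2 ratio -0.22, -0.33 to -0.11). Over the same bins Kit stood at 1.65 (1.57 to 1.74), 1.46 (1.37 to 1.55), 1.47 (1.38 to 1.56) and 1.45 (1.37 to 1.53). The interval of the lowest bin lay only barely above the others (1.568 against 1.558). The strongest site alone gave 0.15 (-0.08 to 0.38) for Il3ra and -0.33 (-0.57 to -0.09) for Kit. The remaining 7 genes had intervals that included 0. The strongest site of Csf3r alone had 47 against 20 fragments (log2 ratio 1.07, 0.31 to 1.92), which is 1 of 120 such single-site ratios. Single-site intervals of other uncalled genes also left out 0, for Kit with CD61 (0.28, 0.01 to 0.55) and Pdgfrb with CD106 (0.37, 0.02 to 0.70). No share over all sites was computed for these. Among markers of other cell types, the 5 erythroid genes tested had 2 lower in the high cells, Gata1 (log2 ratio -0.92) and Epor (-0.69), and the 4 macrophage genes other than Csf1r had 1 higher, Mrc1 (0.28, 0.05 to 0.50). The summed level of the 7 macrophage genes was 0.37 in high and 0.35 in low cells (log2 ratio 0.07, -0.04 to 0.18), and none of them was at 0. The erythroid sum was lower in the high cells (-0.24, -0.34 to -0.14) and the endothelial sum higher (0.09, 0.01 to 0.18). The LT-HSC sum without Kit was also higher (0.07, 0.03 to 0.11), with Mecom (0.12) and Hlf (0.15) higher and Meis1 lower (-0.09). The part of these cell types in the Csf1r and Kit values was not tested.

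The CD274 groups differed little in depth (medians of 10296 and 10470 fragments) but widely in total tags (46 and 17), and 13.3% against 5.82% of their cells had excess overlaps. Without the latter cells the log2 ratios were 0.40 for Csf1r, 0.22 for Il3ra and -0.28 for Kit, and with CD274 as a residual on the other antibodies 0.37, 0.21 and -0.24. In the 363 cells with at least 50 tags all 3 calls were lost, with 0.04 (-0.45 to 0.54), 0.00 (-0.38 to 0.39) and, in the other direction, 0.14 (-0.21 to 0.49).

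CD61 (integrin beta 3, carried by megakaryocytes and platelets) called 8.84% of all genes and 2 of the 10. Il6st was higher in CD61-high cells (1.02 against 0.85, log2 ratio 0.27, 0.05 to 0.49), with 281 against 198 fragments at its start (0.30, 0.03 to 0.57). Flt3 was lower (0.84 against 0.997, log2 ratio -0.25, -0.43 to -0.07). CD357 (GITR) called 8.16% of genes and 1 of the 10, Kit, which was higher in CD357-high cells (1.62 against 1.43, log2 ratio 0.18, 0.08 to 0.29). Each of these 3 lost its call in 3 or 4 of 8 alternatives. The strongest site alone gave -0.23 (-0.60 to 0.14) for Flt3 with CD61 and 0.19 (-0.03 to 0.41) for Kit with CD357. In the CD61-high cells the summed neutrophil and monocyte genes were lower (log2 ratio -0.42, -0.70 to -0.14), with Cebpe at -0.75. The megakaryocyte gene Pf4 (-0.35, -0.68 to -0.03), the erythroid gene Epor (-0.34, -0.65 to -0.02) and the stromal gene Pdgfra (-0.18, -0.36 to -0.01) were also lower. The dendritic cell gene Irf8 was higher (0.26, 0.03 to 0.49). The sums of these 4 cell types' lists had intervals that included 0. For the dendritic list the sum was 0.03 (-0.14 to 0.20), with a median of -0.18 over its 5 genes other than Flt3. Median tags were 36 against 22 and excess-overlap cells 13.1% against 5.09%. In the CD357-high cells the megakaryocyte sum was lower (-0.08, -0.14 to -0.03), as was Vwf (-0.12). Cebpe was also lower (-0.61), the only 1 called of the 3 neutrophil and monocyte genes tested. Median tags were 36 against 25 and excess-overlap cells 11.7% against 4.58%. The part of these in the Il6st, Flt3 and Kit values was not tested.

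For the rarer antibodies the low group was the cells with no tag. Csf1r was higher in cells with at least 2 tags of CD27 (1.63 against 1.37, log2 ratio 0.25, 0.08 to 0.41) and of MERTK (1.58 against 1.35, log2 ratio 0.23, 0.05 to 0.41), where 7.04% and 7.02% of genes were called. The intron 2 site, whose fragments are part of the gene's count, was at 0.33 (0.05 to 0.60) and 0.36 (0.05 to 0.65). The groups were drawn from the same cells as those of CD274, so these are not separate observations, and the calls held in 2 of 7 and 4 of 8 alternatives. Without the excess-overlap cells Csf1r with CD27 was at 0.15 (-0.04 to 0.33) and no longer called. MERTK is a macrophage receptor. The summed level of the 7 macrophage genes, Mertk among them, was 0.35 in both the high and the low MERTK cells. The single markers called in the MERTK-high cells were Gata1 (log2 ratio 0.42, 0.18 to 0.66), Slamf1 (0.25, 0.03 to 0.46) and Cd4 (0.45, 0.01 to 0.85), all higher. Their part in the Csf1r value was not tested. P2X7R, an ATP-gated channel, called 7.84% of genes and 3 of the 10: Csf2rb higher (0.80 against 0.67, log2 ratio 0.25), Pdgfrb lower (0.91 against 1.03, -0.17) and Kit lower (1.46 against 1.55, -0.09). These held in 3, 3 and 1 of 7 alternatives. Their strongest sites alone gave 0.22 (-0.21 to 0.63), -0.07 (-0.40 to 0.25) and -0.07 (-0.26 to 0.11). The summed level of the stromal marker genes was also lower in the P2X7R cells (log2 ratio -0.09, -0.17 to -0.02). Of single markers, Mpo (0.42, 0.03 to 0.81) and Xcr1 (0.41, 0.12 to 0.68) were called higher. Gp1bb (-0.25, -0.50 to -0.01) and Fgd5 (-0.14, -0.26 to -0.02) were called lower. The part of these in the Csf2rb, Pdgfrb and Kit values was not tested.

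CD106 (VCAM-1) called 6.53% of genes and, of the 10, Tek alone (0.19 against 0.16, log2 ratio 0.29, 0.07 to 0.50). The Tek call held in 5 of 7 alternatives and was lost with at least 50 tags (0.15, -0.46 to 0.74) and over open sites alone (0.28, -0.12 to 0.66). The T and NK cell sum was lower in these cells (-0.13, -0.24 to -0.02), and its part in the Tek value was not tested. In the antibody list the CD106 entry carries the descriptive name of the CD68 antibody. The study's list of reagents gives CD106 and CD68 as separate antibodies with different catalogue numbers, and the CD106 name is used here. CD201 (EPCR) called 7.63% of genes and 0 of the 10. CD68 (6.46%) called Flt3 (log2 ratio 0.21, 0.01 to 0.41), CD183 (5.87%) called Kit (0.18, 0.02 to 0.34) and CD163 (5.52%) called Kit (0.29, 0.00 to 0.55), each with an interval close to 0. They held in 1, 5 and 2 of 7 alternatives, and Kit with CD163 turned to -0.80 (-2.36 to 0.22) with at least 50 tags. Without the excess-overlap cells Flt3 with CD68 (0.19, -0.03 to 0.40) and Kit with CD163 (0.30, -0.01 to 0.58) were not called. The strongest site alone gave -0.15 (-0.63 to 0.28) for Flt3 with CD68, in the other direction. For Kit it gave 0.22 (-0.13 to 0.55) with CD183 and 0.11 (-0.60 to 0.68) with CD163. With CD68 the neutrophil and monocyte sum was lower (-0.47, -0.89 to -0.11) and the stromal sum higher (0.15, 0.03 to 0.28), with CD183 the mast cell sum was lower (-0.36, -0.70 to -0.06), and with CD163 the erythroid sum was higher (0.34, 0.08 to 0.57) and the stromal sum lower (-0.35, -0.66 to -0.07). Their part in the Flt3 and Kit values was not tested. CD206 (5.64%) called 0 of the 10. These 4 antibodies had 281, 225, 71 and 82 cells with any tag, and at such counts small differences were not detectable.

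**Figure D5:**
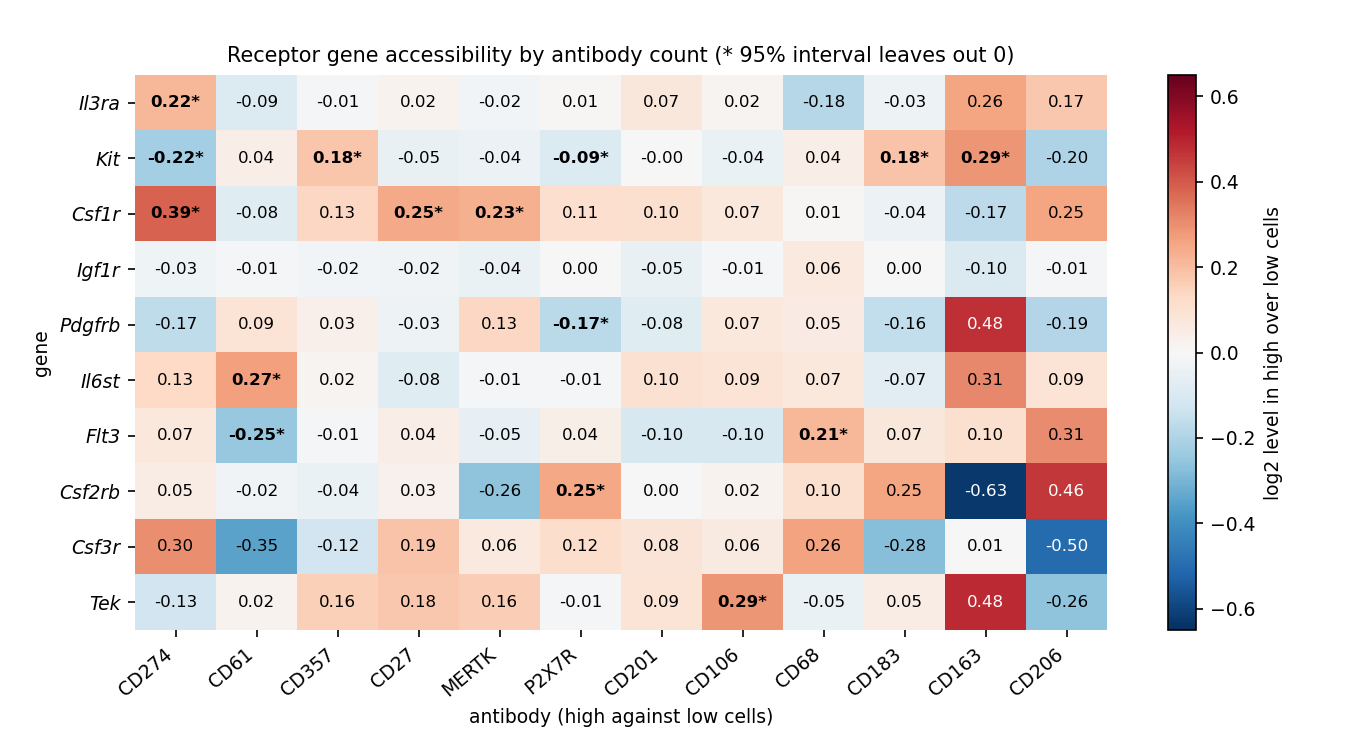
Log2 ratio of the fragment level in high over low cells for each of the 10 genes (rows) and 12 antibodies (columns), with an asterisk where the 95% interval leaves out 0. CD274 has the largest called value, 0.39 at Csf1r, and Igf1r has no call.

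The study's platelet-biased (PLT) and multilineage (MUL) subsets were approached by median gates, with CD61 and CD274 high and CD357 and CD27 low for PLT and the reverse for MUL. The gates held 342 and 61 cells. The interval left out 0 for 0 of the 10 genes, and for 5.84% of all genes. The most widely open genes gave the tightest bounds: Igf1r had 1255 and 221 fragments (log2 PLT over MUL -0.06, -0.26 to 0.16) and Kit 423 and 87 (-0.29, -0.61 to 0.07). Csf1r had 175 and 36 fragments (-0.29, -0.80 to 0.28). These gates also split cells by CD27, CD61 and CD357, so this is not the CD274 comparison given above. In the 645 called cells without antibody counts, set against the kept cells, the interval left out 0 for 1 of the 10 genes, Tek, and for 7.53% of all genes.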

How the data were processed

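Fragments of LT-HSCs were taken from the ATAC file, per the file headers made by the authors with Cell Ranger ARC 2.0.2 on mm10, which collapses duplicate read pairs and shifts ends for the transposase. Antibody tags were deposited as raw counts per cell, from CITE-seq-Count (version not given in the sources used here). RNA was not analysed. The 10 genes and the gene lists were chosen with earlier results of these data known.

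Fragments were counted over GENCODE M21 genes with 2 kb upstream, divided by length and by nuclear fragments. Open sites were 500 base windows in steps of 50 bases. Log2 ratios had 0.5 added to each count. Genes with at least 200 fragments entered comparisons over genes. Doublets were not removed, and cells with excess overlaps were left out in an alternative. Genes named were the 10 members, the 3 most correlated genes of each, and the highest and lowest of each list, and list members called with an antibody were named after their values were seen. Functions were tested on simulated data. Software was Python 3.11.15, numpy 2.4.6, scipy 1.17.1 and pandas 2.3.3. The sequence of 1 further site is not reported here.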

Additional observations from a re-analysis of the deposited data

Results flagged for a closer look

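The 645 called cells without antibody counts could not enter the antibody comparisons, and they held 1081 fragments of the 10 genes. In these cells the level of Tek was 0.232 fragments per kb per 1000000 nuclear fragments (0.167 to 0.315, 41 fragments), against 0.165 (0.155 to 0.177) in the kept cells. The log2 ratio was 0.51, with an interval from 0.00014 to 0.94 that barely leaves out 0, and 7.53% of all genes were called in this comparison. For the other 9 genes the interval of the ratio included 0, as for Kit (1.37, 1.16 to 1.61), Csf1r (1.28, 0.963 to 1.66) and Il3ra (8.04, 6.67 to 9.61). In the antibody table, 15768 tags of the kept cells matched no antibody and were not used.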

How the results depend on the processing

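Of the counts given above, those for levels, gene starts, spread and co-opening stayed within 1.5 times under each alternative tried for them. The 114 open sites became 197 at 3 times the genome mean and 62 at 10 times, since the threshold sets the count. The count of 15 antibody calls became 7 with at least 50 tags, where 363 cells remained and 1 of the 15 (Kit with CD183) was still called, and 13 to 17 under the 7 other alternatives. The CD274 calls of Csf1r, Il3ra and Kit held in 7 of 8 alternatives each, and the other 12 calls in 1 to 5 of the 7 or 8 that changed their groups, since for 6 antibodies ties made wider groups identical. With at least 50 tags the log2 ratio reversed for Kit with CD274 (0.14), Il6st with CD61 (-0.080), Csf1r with CD27 (-0.047) and MERTK (-0.10), Csf2rb with P2X7R (-0.29) and Kit with CD163 (-0.80), and Kit with P2X7R reversed as a residual on the other antibodies (0.00012). The cause was not tested. Without the 2 kb upstream, Il6st fell to 49.3% and Csf2rb rose to 52.3% of genes by level. No paired analysis was possible because each assay had 1 library. Depth limits rare co-opening and the rarer antibodies.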
